A study of Mus musculus with 6 samples.

Results

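Surface antigens of the Ly6 family and of prostate luminal progenitor cells were followed in cancer cells that had been sorted out of MCRedAL prostate allografts in mice. The members were taken by name: Ly6a, Ly6c1, Ly6c2, Ly6d, Ly6e, Ly6g, Psca, Prom1 and Cd24a. A gene was measured where the platform annotation gave exactly 1 symbol for a transcript cluster, the set of probes that the array reports as a unit, and its brightest cluster stood for it. Of the 9 members 8 were measured, each by 1 cluster, among 30142 genes in all. Ly6a was not analysed here.

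MCRedAL cells are a derivative of the Myc-CaP mouse prostate cancer line, which carries a human MYC transgene under an androgen-responsive promoter, and they express the red fluorescent protein mCherry. All groups therefore come from a single tumor line, and host strain and age are not given in the labels. Gene expression was measured on Affymetrix MTA 1.0 arrays, with 1 array per tumor, in 3 untreated tumors (titled Intact) and 3 tumors of male mice treated with degarelix, which blocks the pituitary receptor for gonadotropin-releasing hormone and so lowers androgens. Mice were randomized, and degarelix was injected under the skin once tumors measured about 500 mm2, the unit that the labels give. The degarelix samples are titled 7dPC, which the labels do not explain. Cells were sorted as positive for mCherry and negative for 3 antigens, which Ptprc (CD45, leukocytes), Itgam (CD11b, myeloid cells) and Adgre1 (macrophages) encode, and an RNA integrity number of 9 or more was required. The comparison asks how these surface antigen genes differed in tumor cells after androgen withdrawal.

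Ly6 proteins share a compact fold held by disulfide bonds, and most sit in the outer membrane leaflet through a glycosylphosphatidylinositol (GPI) anchor. Many of their genes lie side by side on mouse chromosome 15 and are close copies of each other, and several are induced by interferons in immune cells. In the prostate, Ly6d marks luminal progenitors that survive castration, Psca (prostate stem cell antigen) marks luminal cells near the urethra, and Prom1 (CD133) and Cd24a (heat-stable antigen) are used to sort epithelial progenitors.

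The Ly6c1, Ly6c2 and Ly6g genes are shown first by the 250 bases before their transcription start, because these neighbouring copies were all higher after degarelix in the results that follow. The promoter table of RefSeq (build GRCm38.p6) held 4 of the 9 members, these 3 and Prom1. For each gene the first start site in the table is printed 5′ to 3′ on the strand of the gene. Capitals mark, in Ly6c2 and Ly6g, bases identical to Ly6c1 in a local alignment, and in Ly6c1 the 70 bases shared with both. The windows lie at chr15:75048838-75049087 (minus strand) for Ly6c1, chr15:75111972-75112221 (minus strand) for Ly6c2 and chr15:75155011-75155260 (plus strand) for Ly6g.
Ly6c1: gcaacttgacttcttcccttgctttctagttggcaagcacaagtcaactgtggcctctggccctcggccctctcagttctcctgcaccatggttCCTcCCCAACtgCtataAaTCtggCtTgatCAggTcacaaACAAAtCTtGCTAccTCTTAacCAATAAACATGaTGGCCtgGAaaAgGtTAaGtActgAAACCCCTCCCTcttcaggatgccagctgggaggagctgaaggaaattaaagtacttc
Ly6c2: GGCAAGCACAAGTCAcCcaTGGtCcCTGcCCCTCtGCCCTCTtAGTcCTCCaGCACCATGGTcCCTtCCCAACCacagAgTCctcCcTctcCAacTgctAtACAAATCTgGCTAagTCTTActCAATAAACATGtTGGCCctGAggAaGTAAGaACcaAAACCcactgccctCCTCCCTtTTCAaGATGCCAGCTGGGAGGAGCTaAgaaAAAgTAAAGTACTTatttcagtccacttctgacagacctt
Ly6g: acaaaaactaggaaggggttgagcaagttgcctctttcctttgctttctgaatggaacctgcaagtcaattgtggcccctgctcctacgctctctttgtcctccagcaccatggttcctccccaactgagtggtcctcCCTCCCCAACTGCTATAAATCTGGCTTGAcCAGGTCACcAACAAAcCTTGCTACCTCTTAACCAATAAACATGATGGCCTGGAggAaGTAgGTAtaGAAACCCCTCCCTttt

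Ly6c1 and Ly6c2 were identical at 164 of 215 aligned bases (76.3%), and Ly6c1 and Ly6g at 100 of 109 (91.7%). Ly6c1 and the unrelated Prom1 aligned over 12 bases only. Motifs were searched on both strands of these windows: the STAT site TTCNNNGAA, the interferon regulatory factor site AANNGAAA and the hexamer AGAACA bound by androgen and glucocorticoid receptors. None of the 3 occurred before either listed start site of Ly6c1 or Ly6c2. Ly6g had 1 match to AANNGAAA, from 216 to 209 bases before the printed start, and none to the others. Among all 32851 promoter windows of the table, 7.02% held TTCNNNGAA, 21.3% held AANNGAAA and 16.1% held AGAACA. Prom1 held 1 match to AGAACA, at its other start site.

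The 5 measured members with Ly6 names were higher after degarelix, while Psca, Prom1 and Cd24a did not pass the test. Ly6c2 rose 2.98-fold, Ly6c1 2.1-fold, Ly6d 2.07-fold, Ly6e 1.49-fold and Ly6g 1.3-fold. At a threshold of 0.05 on limma's Benjamini-Hochberg adjusted p, taken over all genes, 5 of the 8 measured members were higher and 0 lower. Of all genes, 4.19% were called higher, 7.51% lower and 11.7% in either direction. The median change of the 8 members was 0.60 on the log2 scale, against 0.04 for all genes. In 7 members the 3 degarelix values lay above the 3 untreated values, as they did for 14.8% of all genes. Values below are log2 levels of RMA, the authors' array summary, and levels of different genes are not compared, because probes differ in brightness. The array's background probe sets, which match no mouse transcript, reached 6.93, and a gene under that value is called dim here. Labels call the samples biological replicates, and 3 arrays per group limit the precision.

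**Figure D1:**
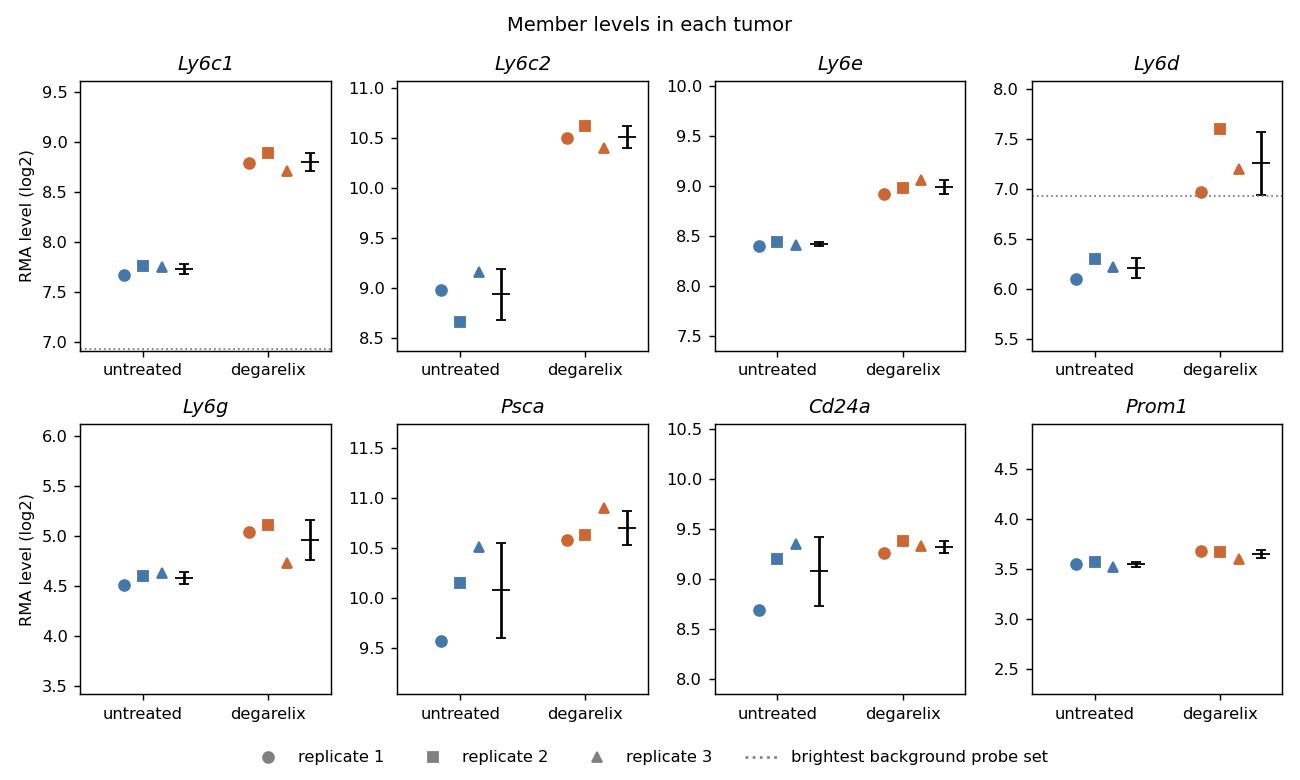
Level of each measured member in each tumor (log2, RMA), by group, with a symbol per replicate number and the mean ± SD (n = 3) as a black bar. Each panel spans the same log2 range. The 3 degarelix points lie above the 3 untreated points in every panel except that of Cd24a, where they overlap, and in Psca, Ly6g and Prom1 the gap is 0.07, 0.11 and 0.03.

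Ly6c1 and Ly6c2 encode the Ly6C antigen, best known on monocytes, endothelial cells and some T cells. Ly6c2 was at 8.98, 8.66 and 9.16 in untreated replicates 1 to 3 and at 10.50, 10.62 and 10.40 in degarelix replicates 1 to 3. The lowest treated value exceeded the highest untreated value by 1.25, more than the spread inside either group (0.49 untreated and 0.21 treated). The change of 1.57 (SE 0.12, 95% interval 1.29 to 1.86) had a limma adjusted p of 0.00022. Ly6c1 was at 7.67, 7.76 and 7.75 in untreated and at 8.79, 8.89 and 8.71 in degarelix tumors. The groups were 0.95 apart, with spreads of 0.08 and 0.19. Its change of 1.07 (SE 0.07, 95% interval 0.90 to 1.24) had a limma adjusted p of 0.000115. Both genes were highest in degarelix replicate 2 and, among treated tumors, lowest in degarelix replicate 3. How much signal the probes of these copies share was not tested, so they are uncertain as single genes.

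Ly6e, an interferon-inducible Ly6 gene expressed in many tissues, varied least among untreated tumors. It was at 8.40, 8.44 and 8.41 in untreated and at 8.92, 8.98 and 9.06 in degarelix tumors. The change of 0.57 (SE 0.07, 95% interval 0.42 to 0.73; limma adjusted p = 0.00137) compares with SDs of 0.02 and 0.07, and the groups were 0.48 apart.

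Ly6d, also a marker of early B cells, was at 6.10, 6.30 and 6.22 in untreated tumors and at 6.97, 7.60 and 7.20 in degarelix tumors. The untreated values were dim and the treated values lay above the brightest background probe set, with the treated tumors spread over 0.63. The change was 1.05 (SE 0.15, 95% interval 0.72 to 1.38; limma adjusted p = 0.00283). Levels of a dim gene are compressed in RMA, so the fold may be understated.

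Ly6g, the antigen of mouse neutrophils, was dim in every tumor. It was at 4.51, 4.60 and 4.63 in untreated and at 5.04, 5.11 and 4.73 in degarelix tumors, and degarelix replicate 3 came within 0.11 of the highest untreated value. The change of 0.38 (SE 0.10, 95% interval 0.15 to 0.62) had a limma adjusted p of 0.0474. Among the 4741 genes with a mean level from 4 to 5, the median change was 0.08 and 1.73% were called higher. The call of Ly6g ended on leaving out any single sample other than degarelix replicate 3, with adjusted p of 0.0841, 0.11 and 0.101 without untreated replicates 1, 2 and 3 and 0.168 and 0.169 without degarelix replicates 1 and 2. It also ended with median centring (0.068), cyclic loess (0.0609) and quantile normalization (0.0511).

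Psca was at 9.57, 10.15 and 10.51 in untreated tumors and at 10.58, 10.63 and 10.90 in degarelix tumors. The untreated tumors spread over 0.94, the widest spread of any member in either group, and untreated replicate 3 lay 0.07 under the lowest treated tumor. The change of 0.63 (SE 0.21, 95% interval 0.15 to 1.10) had a limma adjusted p of 0.092 and did not pass. Without untreated replicate 1 the change was 0.37 (adjusted p = 0.106), and without untreated replicate 3 it was 0.84 and passed (adjusted p = 0.029). Cyclic loess (0.75, adjusted p = 0.0377) and quantile normalization (0.72, adjusted p = 0.0407) also gave a call.

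Cd24a, whose protein is a short GPI-anchored mucin, was at 8.69, 9.20 and 9.35 in untreated and at 9.26, 9.38 and 9.33 in degarelix tumors. The groups overlapped, and untreated replicate 1 was again the lowest tumor. The change of 0.24 (SE 0.15, 95% interval -0.10 to 0.59; limma adjusted p = 0.338) did not pass, and it was 0.05 without untreated replicate 1.

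Prom1 encodes prominin 1, a pentaspan protein of membrane protrusions and the only measured member without a GPI anchor. It was at 3.55, 3.57 and 3.52 in untreated and at 3.68, 3.67 and 3.60 in degarelix tumors. All 6 values were far below the brightest background probe set. The change of 0.10 (SE 0.07, 95% interval -0.04 to 0.25; limma adjusted p = 0.341) did not pass, and a change of so dim a gene could have been missed. Its relative Prom2 was bright and lower after degarelix, at 11.03, 11.31 and 11.12 in untreated against 10.67, 10.63 and 10.65 in treated tumors. Prom2 fell by 0.50 (limma adjusted p = 0.00736), with all 3 treated values under all untreated values.

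Some genes of the wider Ly6 and urokinase receptor (uPAR) family were higher too. Of 36 measured genes 9 were higher and 0 lower, with a median change of 0.20, and 31 of the 36 were dim. Across all genes 4.19% were called higher, and across dim genes 2.63%, with a median change of 0.06 in dim genes. Cd59a, an inhibitor of the complement membrane attack complex, rose by 0.85 (limma adjusted p = 0.00398), and its copy Cd59b had a change of 0.05. Ly6g6e rose by 0.46, Ly6g6c by 0.48 and Slurp2, which encodes a secreted family member, by 0.31. Ly6f (0.39), Ly6h (0.12), Ly6k (0.11) and Ly6a2 (0.31) were measured and did not pass. The urokinase receptor gene Plaur was at 10.80, 11.54 and 11.60 in untreated and at 11.61, 11.61 and 11.68 in degarelix tumors, and its change of 0.32 did not pass. The count of genes higher was 3 when untreated replicate 2 was left out, and also 3 when degarelix replicate 1 or 2 was. It was 5 without untreated replicate 3, and the highest count over single omissions was 11. Cd59a and Ly6g6e kept their call on every single omission, Ly6g6c lost it without degarelix replicate 2 (adjusted p = 0.055), and Slurp2 lost it without untreated replicates 2 or 3 or degarelix replicates 1 or 2 (0.0542 to 0.0718).

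**Figure D2:**
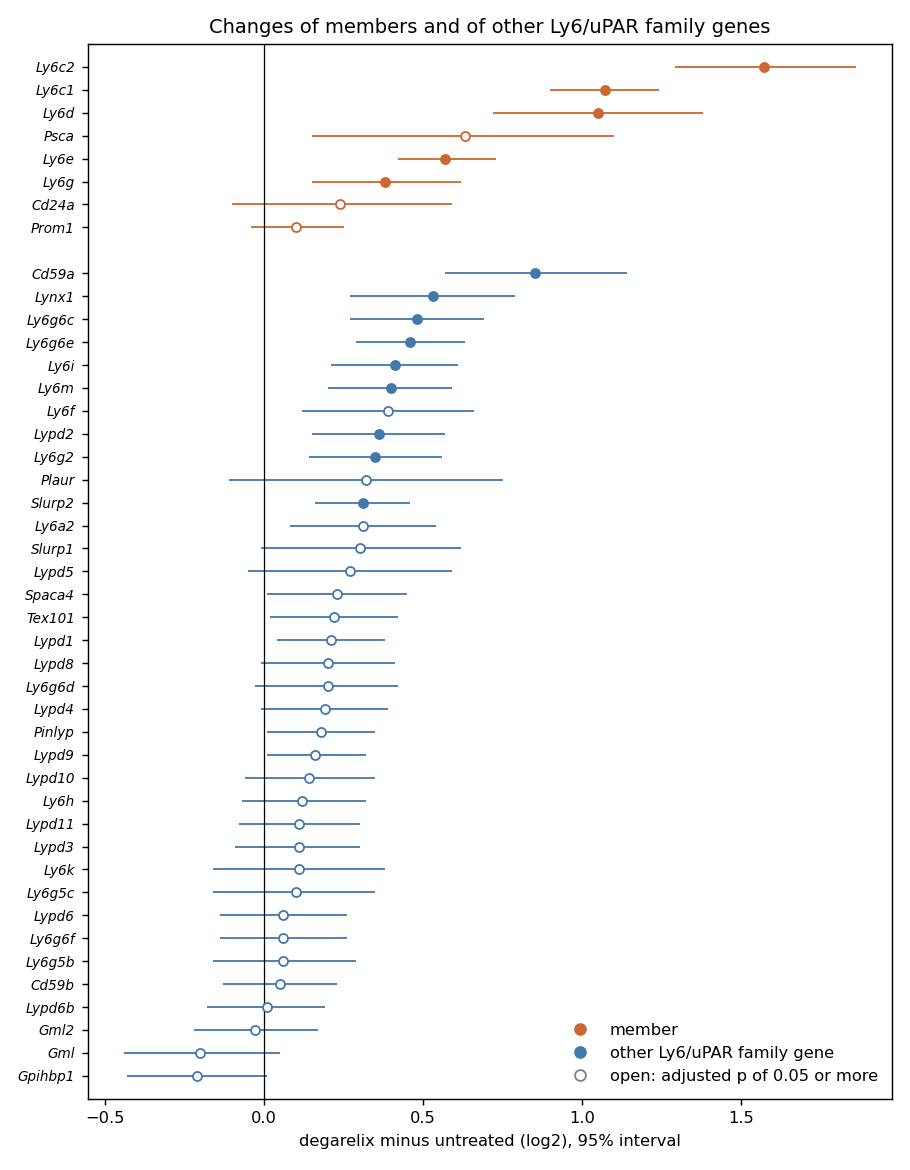
Change (degarelix minus untreated, log2) with its 95% interval from limma for the 8 measured members (orange) and 36 other genes of the Ly6 and uPAR family (blue), each sorted by size. Filled points passed the adjusted threshold. Ly6c2, Ly6c1 and Ly6d lie to the right of every other gene, and Gpihbp1 has the lowest value.

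Along the chromosome 15 cluster the calls went one way. RefSeq lists 45 genes from Psca to Gpihbp1, of which 26 were measured, 6 of them members. Of the 26, 12 were higher and 0 lower, with a median change of 0.33. The share called higher was 4.19% of all genes and 2.63% of dim genes, whose median change was 0.06. The 20 that are not members included 7 higher and had a median of 0.29, and 18 of the 20 were dim. Those 7 were Lynx1 (0.53), a modulator of nicotinic acetylcholine receptors, the pseudogene Gm10238 (0.55), Ly6i (0.41), Ly6m (0.40), Lypd2 (0.36), Ly6g2 (0.35) and Slurp2 (0.31). Them6, a bright neighbour that is no Ly6 gene, had a change of -0.11 that did not pass. The dim Cyp11b1 and Cyp11b2, no Ly6 genes either, had changes of 0.24 and 0.18 (limma adjusted p = 0.12 and 0.27). In Cyp11b1 all treated values lay above all untreated values, by a gap of 0.00 after rounding. At the far end Gpihbp1, which holds lipoprotein lipase on capillaries, had a change of -0.21 (limma adjusted p = 0.206). Of those 7, 6 lost their call on leaving out 1 or more single samples (adjusted p = 0.0502 to 0.156), and Gm10238 did not. Median centring ended the calls of Lynx1 (adjusted p = 0.073), Lypd2 (0.1) and Slurp2 (0.0522). Lypd2 also lost its call with cyclic loess (0.122), quantile normalization (0.0824) and the replicate block (0.0527). Without untreated replicate 2 or degarelix replicate 1 the cluster had 5 calls, and without degarelix replicate 2 it had 6. Without untreated replicate 1 it had 11 higher and 1 lower. Whether dim Ly6 copies pick up signal from brighter ones was not tested.

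**Figure D3:**
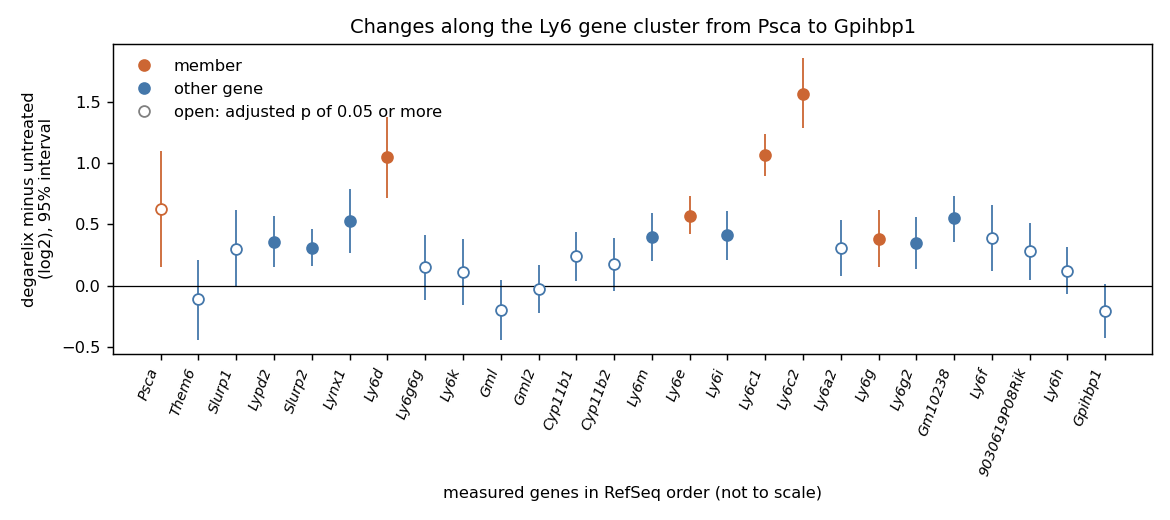
Change (degarelix minus untreated, log2) with its 95% interval from limma for the 26 measured genes from Psca to Gpihbp1 in RefSeq order, not to scale. Members are orange, other genes blue, and filled points passed the adjusted threshold. The highest points are Ly6c2, Ly6c1 and Ly6d, and the filled points are all above 0.

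Other genes of the proximal luminal progenitor state were partly higher. Of 16 measured genes 5 were higher and 0 lower, and the median change was 0.34. The share called higher was 4.19% of all genes, and 7.06% to 8.28% in the level ranges above 6.93. Krt4, a keratin of luminal progenitors and stratified epithelia, was at 6.47, 6.56 and 6.50 in untreated and at 8.01, 8.19 and 8.27 in degarelix tumors, a change of 1.65 (SE 0.08; limma adjusted p = 3.79e-05). The adhesion receptor gene Cd44 rose by 0.85, the lactoferrin gene Ltf by 0.48 and the transcription factor gene Sox9 by 0.93, while Krt19 went from a mean of 7.29 to 9.17. Sox9 lost its call without untreated replicate 2 or any of the degarelix replicates (adjusted p = 0.0678 to 0.0916), and with median centring (0.0652). Genes of the same list that did not pass included Krt7 (-0.02), Cldn10 (0.01) and the secretory chaperone gene Clu (0.42). Among 14 measured surface antigens used to sort stem cells, Cd44 was the only one higher and Prom2 the only one lower (median 0.02). Shares of all genes were 4.19% higher and 7.51% lower. The integrin genes Itga6 and Itgb1 had changes of 0.00 and -0.04.

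Genes that build and attach the GPI anchor, which the Ly6 proteins, Psca and Cd24a carry, included few that passed. Of 26 measured genes 0 were higher and 4 lower, with a median change of -0.21, and 8 of the 26 were dim. Among all genes with a mean level of 6.93 to 8, 14.9% were called lower, and the share was 17.3% from 8 to 9 and 16.8% above 9. The count of 4 is near those shares, but median changes at these levels were only -0.06, -0.09 and -0.12. In 13 of the 26 all treated values lay under all untreated values, and in 3 above. Across all genes, 31.2% did not overlap counting both directions, of which 14.8% of all genes had degarelix higher. No such share was taken at the levels of these genes. Pgap1, which remodels the anchor after attachment, fell by 0.90 (limma adjusted p = 0.000302). It was dim (mean level 5.48), and 5.12% of all genes with a mean level from 5 to 6 were called lower. Pign and Pigw, enzymes of anchor assembly, fell by 0.51 and 0.50, and Pigk, the catalytic subunit of the transamidase that attaches the anchor, fell by 0.46. In each of these 4 genes all treated values lay under all untreated values. Without untreated replicate 1 the number lower was 11, in a fit that called 3253 of all genes lower against 2264 with every sample.

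Interferon-stimulated genes, a class to which Ly6e and Ly6c genes belong in immune cells, moved both ways. Of 27 measured genes 2 were higher and 6 lower, with a median change of -0.05, and 13 of the 27 were dim. Across all genes 4.19% were called higher and 7.51% lower, and across dim genes 2.63% and 3.77%. Rsad2, which encodes the antiviral protein viperin, fell by 1.26, the RNA sensor gene Ifih1 by 1.02 and the kinase gene Cmpk2 by 0.46. Ifit1 (-0.93), Cxcl10 (-0.62) and Ifit2 (-0.38) were also lower. Of the genes called lower, all but Rsad2 were dim by their mean level (5.10 to 6.78). Ifit1 and Ifit2 lost their calls with median centring, cyclic loess and quantile normalization (adjusted p = 0.0603 to 0.0743). Their calls also ended without any single sample other than untreated replicate 1 (0.0551 to 0.159). Cxcl10 lost its call without degarelix replicate 1 (0.0535). Gbp2, a guanylate-binding GTPase gene, rose by 1.18 and Oas2, a sensor of double-stranded RNA, by 0.66. Oas2 lost its call with median centring (adjusted p = 0.0629) and without untreated replicate 3 (0.0688). With median centring the class had 5 calls, and it also had 5 without untreated replicate 3 or without degarelix replicate 1.

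Gene profiles closest to the called members over the 6 arrays were found by the root mean square difference of mean-centred log2 values. For Ly6c1 they were Obp2b (0.04), Krt13 (0.08) and Tmem176b (0.08), and for Ly6c2 Matn2 (0.10), Gnao1 (0.11) and Tnxa (0.13). Ly6d was closest to Gbp2 (0.15), followed by Ly6c1 and Ucma (both 0.16). The nearest to Ly6e were Ttc36 (0.03), Cst3 (0.04) and Inpp5k (0.04). Around Ly6g the nearest were Trbv12-2 (0.03), Ighv14-1 (0.04) and G630025P09Rik (0.05), which were dim as well. The measure describes likeness over 6 arrays that fall into 2 groups, and no test was made of it.

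Since Ly6 antigens also mark blood and vessel cells, markers of those and of other cell types were read in the same arrays. In bulk samples, fewer cells of a type and less RNA per cell cannot be told apart. Across all genes 11.7% were called in either direction, and across dim genes 2.63% were called higher and 3.77% lower. Of 12 neutrophil markers 0 were called and all 12 were dim. Their summed linear intensity was 353 to 402 in untreated and 351 to 387 in degarelix tumors. Of 13 monocyte and macrophage markers 0 were called, and the sum was 840 to 1983 in untreated and 771 to 810 in degarelix tumors. Untreated replicate 1 had the highest sum, with Lyz2, the lysozyme gene of myeloid cells, at 9.02 against 5.51 to 7.65 in the other tumors. Without that sample the changes of Ly6c1 and Ly6c2 were 1.04 and 1.60. A single omission cannot tell what part of the Ly6 signal came from macrophages, and that part was not tested. The sort antigen genes Ptprc, Itgam and Adgre1 were at 4.47, 6.15 and 6.05 in untreated replicate 1, their highest values. In the other tumors they were at 3.68 to 3.93, 5.18 to 5.60 and 4.87 to 5.24. All were dim by the brightest background probe set, but above the background median of 3.26.

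Of 11 endothelial markers 0 were higher and 1 lower, Vwf at -0.71, and the sum was 925 to 1160 in untreated and 870 to 890 in degarelix tumors. Pecam1 and Cdh5 had changes of -0.26 and -0.38 that did not pass. Of 9 fibroblast markers 2 were higher, Dcn by 1.46 and Fbln1 by 1.07, and 0 lower. Across all genes 4.19% were called higher and 7.51% lower, and in the level ranges above 6.93 7.06% to 8.28% were called higher. Lum had a change of 1.19, with all treated values above all untreated values, and did not pass (limma adjusted p = 0.105). Col3a1 (0.30), Col1a2 (0.27), Col1a1 (0.15), Pdgfrb (0.14), Thy1 (0.04) and Dpt (-0.06) did not pass either and overlapped between groups. The fibroblast sum was 2025 to 2465 in untreated and 2404 to 3743 in degarelix tumors. Dcn was at 6.94, 7.35 and 8.02 in untreated and at 8.71, 8.55 and 9.43 in degarelix tumors. The part of fibroblast RNA in the Ly6 changes was not tested. All 5 B and plasma cell markers and all 8 T and NK cell markers were dim, and none was called. Of 6 pan-leukocyte markers 0 were called and 5 were dim.

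Markers of basal epithelial cells, which line the outer layer of prostate glands, were also read, since they are the other epithelial type of that tissue. Of 9 measured 2 were higher and 0 lower, with a median change of 0.13, and 7 of the 9 were dim. The share called higher was 4.19% of all genes and 2.63% of dim genes. The summed intensity was 928 to 1142 in untreated and 4712 to 5725 in degarelix tumors, and nearly all of that rise came from Krt15 alone. Krt15, a keratin of basal cells, was at 8.50, 7.83 and 8.36 in untreated and at 12.26, 12.12 and 11.94 in degarelix tumors, a change of 3.88 (SE 0.17; limma adjusted p = 2.64e-05), and the groups were 3.44 apart. Krt14 rose by 0.38 (limma adjusted p = 0.0225), was dim, and lost its call without untreated replicates 2 or 3 or degarelix replicates 1 or 2 (adjusted p = 0.0502 to 0.0805). The defining basal genes Krt5 (0.11) and Trp63 (-0.07) did not pass and were dim, with mean levels of 6.63 and 4.97. The part of basal marker expression in the changes of the Ly6 and progenitor genes was not tested.

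For the epithelial label, 5 of 12 general epithelial markers were dim: Cdh1 (mean level 4.92), Cldn7 (5.68), Epcam (3.87), Esrp1 (4.03) and Krt18 (5.58). The other 7 were above the brightest background probe set, among them Krt8, at 11.25 to 12.09 in all tumors, Cldn3 and Cldn4. Of the 12, 2 were higher (Krt19 and Elf3) and 1 lower (Cldn3, at -0.31). Across all genes 4.19% were called higher and 7.51% lower. In the level ranges above 6.93 the shares were 7.06% to 8.28% higher and 14.9% to 17.3% lower. Cldn3 lost its call with median centring (adjusted p = 0.0505), with cyclic loess (0.0783) and without any single sample other than untreated replicate 1 (0.0667 to 0.137). Of 8 luminal prostate markers 5 were dim, 0 were higher and 1 was lower, the dim Msmb at -0.50, whose call ended without untreated replicate 2 or degarelix replicates 1 or 2 (adjusted p = 0.0585 to 0.0896).

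**Figure D4:**
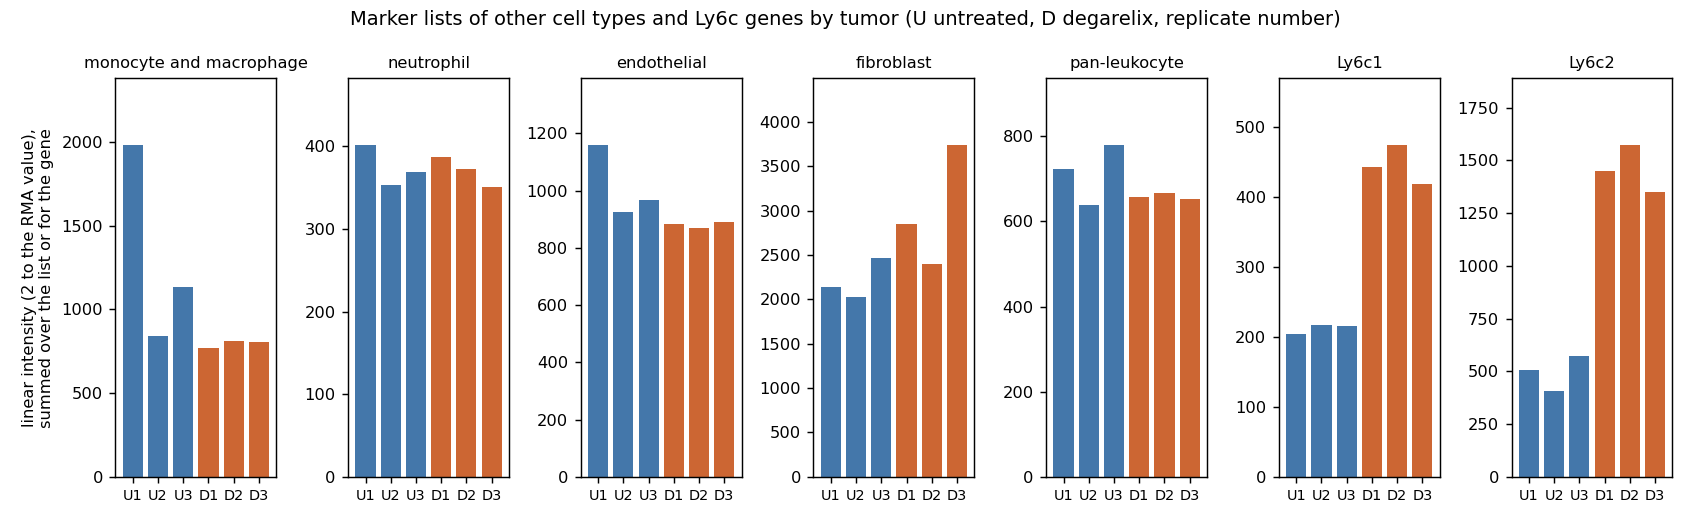
Linear intensity (2 to the power of the RMA value) in each tumor, summed over the markers of 5 other cell types and shown for Ly6c1 and Ly6c2 alone. Blue bars are untreated (U) and orange bars degarelix (D) tumors, numbered by replicate, on axes that start at 0. Ly6c1 and Ly6c2 are higher in the 3 treated tumors, the monocyte and macrophage sum is highest in untreated replicate 1, and the fibroblast sum is highest in degarelix replicate 3.

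Across arrays the medians over transcript clusters were 4.70 to 4.84, and 29.8% to 30.9% of genes lay above the brightest background probe set. Over all genes, 1262 were called higher and 2264 lower, so that 35.8% of calls were higher. The counts higher and lower were 691 and 1939 with median centring (26.3% higher), 1550 and 2004 with cyclic loess (43.6%) and 1646 and 2021 with quantile normalization (44.9%), so the share of all genes called higher moves with the scaling. The direction of the members did not depend on the settings run: all 104 values from 8 members under 13 alternatives were above 0. Calls of Ly6c1, Ly6c2, Ly6d and Ly6e held under all of the 13.

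**Figure D5:**
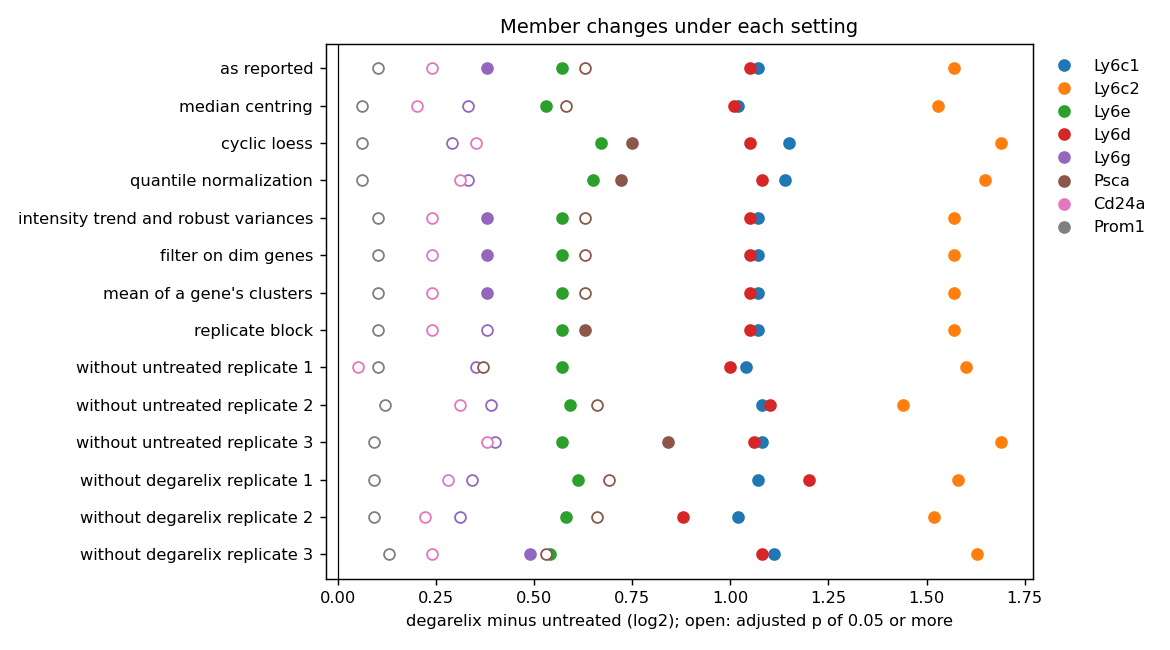
Change of each measured member (degarelix minus untreated, log2) as reported and under the 13 alternative settings. Filled points passed the adjusted threshold. Ly6c1, Ly6c2, Ly6d and Ly6e are filled throughout, Psca and Ly6g change sides, and Cd24a and Prom1 are open throughout.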

How the data were processed

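The deposited table holds log2 values, which the authors made with Affymetrix Expression Console and RMA, per the submitters' processing notes (versions, settings and build: not given in the sources used). RMA scales arrays to a common distribution and flattens changes near background. Leaving out 6732 control rows of 72688 left 65956 transcript clusters: 30604 with 1 gene symbol, 2146 with several and 33206 with none. Entrez identifiers and the GRCm38.p6 RefSeq table updated 827 symbols.

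Both groups were fitted in limma 3.58.1 under R 4.3.3 (lmFit, default eBayes, two-sided) over 30142 genes, without a filter. On simulated data of this comparison over 30142 genes it called 97 of 100 genes changed by a log2 of 1, 54 of 100 changed by 0.5, and 6 of 29942 unchanged ones. The simulation changed far fewer genes than the 3526 called in the data, which makes the adjusted threshold stricter. Its counts are therefore not the power of the reported comparison. Members and lists were chosen with earlier results of these data known. The text names the members, up to 4 called genes per list by adjusted p, called genes against their list or in the chromosome 15 cluster, 3 nearest profiles per called member and fixed markers. Plaur, Cd59b, Ly6f, Ly6h, Ly6k, Ly6a2, Krt7, Cldn10, Clu, Sox9, Itga6, Itgb1, Them6, Gpihbp1, Lyz2, Vwf and Fbln1 were added after their values were seen. So were Lum, Col3a1, Col1a2, Ifit1, Ifit2, Cxcl10, Cyp11b1 and Cyp11b2. Of the fixed cell type markers, only Ptprc, Itgam, Adgre1, Pecam1, Cdh5, Dcn, Epcam, Krt8 and Krt18 were set to be named singly. Other markers named singly were not, among them Krt15, Krt14, Krt5, Trp63, Elf3, Cldn3, Cldn4, Msmb, Col1a1, Pdgfrb, Thy1 and Dpt. Settings varied were array scaling (median, cyclic loess, quantile), a variance trend with robust fitting, a filter at the background median (3.26), averaging clusters, a replicate block and single omissions. Python 3.11.15, pandas 2.3.3 and matplotlib 3.10.9 made tables and plots.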

Additional observations from a re-analysis of the deposited data

How the results depend on the processing

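Under the 13 alternatives, 91 of 104 member values stayed on their side of the threshold and kept their direction; the other 13 were those of Ly6g (9 times not called) and Psca (4 times called). On leaving out each sample in turn, the number of genes called was 1590 to 4700 against 3526, of members 4 to 5, of other Ly6 and uPAR family genes 3 to 11, of proximal luminal progenitor genes 4 to 6, of GPI anchor genes 4 to 11, of interferon-stimulated genes 5 to 12 and of genes of the chromosome 15 cluster 5 to 12. With median centring 5 interferon-stimulated genes were called. Single omissions leave fewer samples; why counts rose without some samples, and the cause of the change with centring, was not tested.

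Replicate numbers are shared between groups. The deviations of same-numbered samples from their group means correlated at 0.16, 0.04 and 0.20 across genes. Differently numbered samples correlated at -0.17 to 0.03, so the same-numbered values were the highest, though small. The reported fit did not pair the samples, and whether the numbers pair them cannot be settled from these values. With the replicate number as a block, 3806 genes and 5 members were called; Ly6g was at an adjusted p of 0.0603 and Psca at 0.031. Signal close to background limits what can be said of Prom1, Ly6g and the dim Ly6 copies.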
